A study of Arabidopsis thaliana with 8 samples.

Results

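DEAD box RNA helicases are ATP-driven enzymes that unwind or remodel short stretches of RNA and RNA-protein complexes. They are named after a motif in their helicase core and act in ribosome assembly, splicing, mRNA export, mRNA decay and the RNA metabolism of plastids and mitochondria. Several were found in Arabidopsis through altered responses to cold, heat or salt. The genes described here were the probe sets, the units of an Affymetrix ATH1 array, whose annotation in the deposited table contains "DEAD box" or "DEAD/DEAH" and not "initiation factor". This gave 49 of 22746 probe sets, which list 53 gene identifiers. The annotation used no expression value. It named the gene product itself a DEAD box or DEAD/DEAH box protein for 40 of the 49. The other 9 carried the term only after wording for a similar or identical protein or a contained domain. They are called annotated by similarity below, and THO2, a subunit of an mRNA export complex, is among them. Of the 49, 45 list 1 gene and 4 are shared by more than 1 gene, 46 were above the floor of the scale in all arrays, and 2 (AT3G09620 and AT1G36020) were at the floor in all of them.

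Wild-type Col-0 seedlings were grown on MS agar with 1% sucrose at 22 °C under 16 h of light and 8 h of dark. Primed seedlings were 5 days old when they received a mild heat of 37 °C for 1.5 h and, after 1.5 h back at 22 °C, a stronger one of 44 °C for 45 min, both in the dark. Harvests were made in the memory phase that followed, at 4, 8 and 24 h and at 48 h. Unprimed seedlings of the same genotype were harvested at the same 4 times, and the study does not state whether they were darkened alike. Every condition is 1 array of pooled whole seedlings, 8 arrays in all, so no difference at a single time can be tested and the 4 times are not replicates of each other.

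All values are log2 values as deposited, on a scale that starts at 2, and a value within 0.05 of that floor carries no order. A difference is primed minus unprimed at the same time on the log2 scale, and a difference of 1 is the 2-fold limit. Array medians lay between 6.99 and 7.08, and 26.3 to 26.9% of probe sets were at the floor in each array. Of all probe sets 5240 (23%) were at the floor in all arrays, against 2 of the 49 members. Such probe sets cannot pass a fold limit, and the shares over all probe sets given below include them. In whole seedlings, fewer cells of a type and less RNA per cell cannot be told apart.

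The 4 heat markers checked the labels. Their summed level, the log2 of the sum of linear values, was 11.44 to 16.62 in primed arrays, against 8.51 to 8.93 in unprimed arrays, and at 4 and 8 h all 4 markers passed the 2-fold limit upward in primed seedlings. HSP21, a plastid small heat shock protein, was at the floor in every unprimed array. Markers of shoot and root were above the floor in all 8 arrays. The summed level of the 4 shoot markers was 16.38 to 17.00 in primed arrays and 16.38 to 17.05 in unprimed arrays. Single shoot markers differed more than this sum. At 4 and at 8 h 2 were higher and 2 lower in primed seedlings. The probe set of LHCB2.1 differed by 2.21 at 4 h and 1.25 at 8 h, and PSBO1 by -0.59 at 8 h. The summed level of the 4 root markers was 12.98 to 14.63 in primed arrays, lowest at 4 and 8 h, against 14.49 to 14.73 in unprimed arrays. All 4 root markers were lower in primed seedlings at 4 and at 8 h. The 4 seed markers summed to 4.12 to 4.57 in primed arrays and to 5.47 to 10.98 in unprimed arrays, with the highest value in the unprimed 24 h array. SESA1, a seed storage albumin, was at the floor in every primed array. The part of root and seed tissue in the results below was not tested.

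DEAD box transcripts were mostly more abundant in primed seedlings at the early times. At 4 h, 12 of the 49 members (24.5%) were at least 2-fold higher in primed than in unprimed seedlings, against 9.36% of all probe sets, and 1 was at least 2-fold lower, against 9.93%. At 8 h the numbers were 10 members higher (20.4%), against 7.33% of all probe sets, and 0 lower, against 7.91%. The 2-fold limit was passed at both times by 8 members, at 4 h only by 4 and at 8 h only by 2, and 34 members stayed within it at all 4 times. The median difference of the members was 0.60 at 4 h and 0.49 at 8 h, whereas the median over all probe sets was 0.00 at each time. Leaving out the 9 members annotated by similarity, 11 of 40 passed the limit upward at 4 h and 8 of 40 at 8 h.

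Later in the memory phase the differences were small. No member passed the 2-fold limit at 24 h, where 2.76% of all probe sets were higher and 1.67% lower, or at 48 h, where 0.747% were higher and 0.932% lower. Member medians were 0.20 at 24 h and 0.15 at 48 h. The unprimed 24 h array had the highest seed marker level. With the mean of the unprimed 4, 8 and 48 h arrays as control in its place, the member median at 24 h was 0.23. Again no member passed the limit. The 14 members past the limit at 4 or 8 h had differences between -0.52 and 0.88 at 24 h and between -0.44 and 0.55 at 48 h. In unprimed seedlings no member moved by 2-fold between neighbouring times, where 1.17 to 3.46% of all probe sets did per step and direction. In primed seedlings 6 of the 49 were at least 2-fold lower at 24 h than at 8 h (12.2%, against 5.64% of all probe sets), and 1 was at least 2-fold higher (AT5G19210, 2.04%, against 6.92%).

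**Figure D1:**
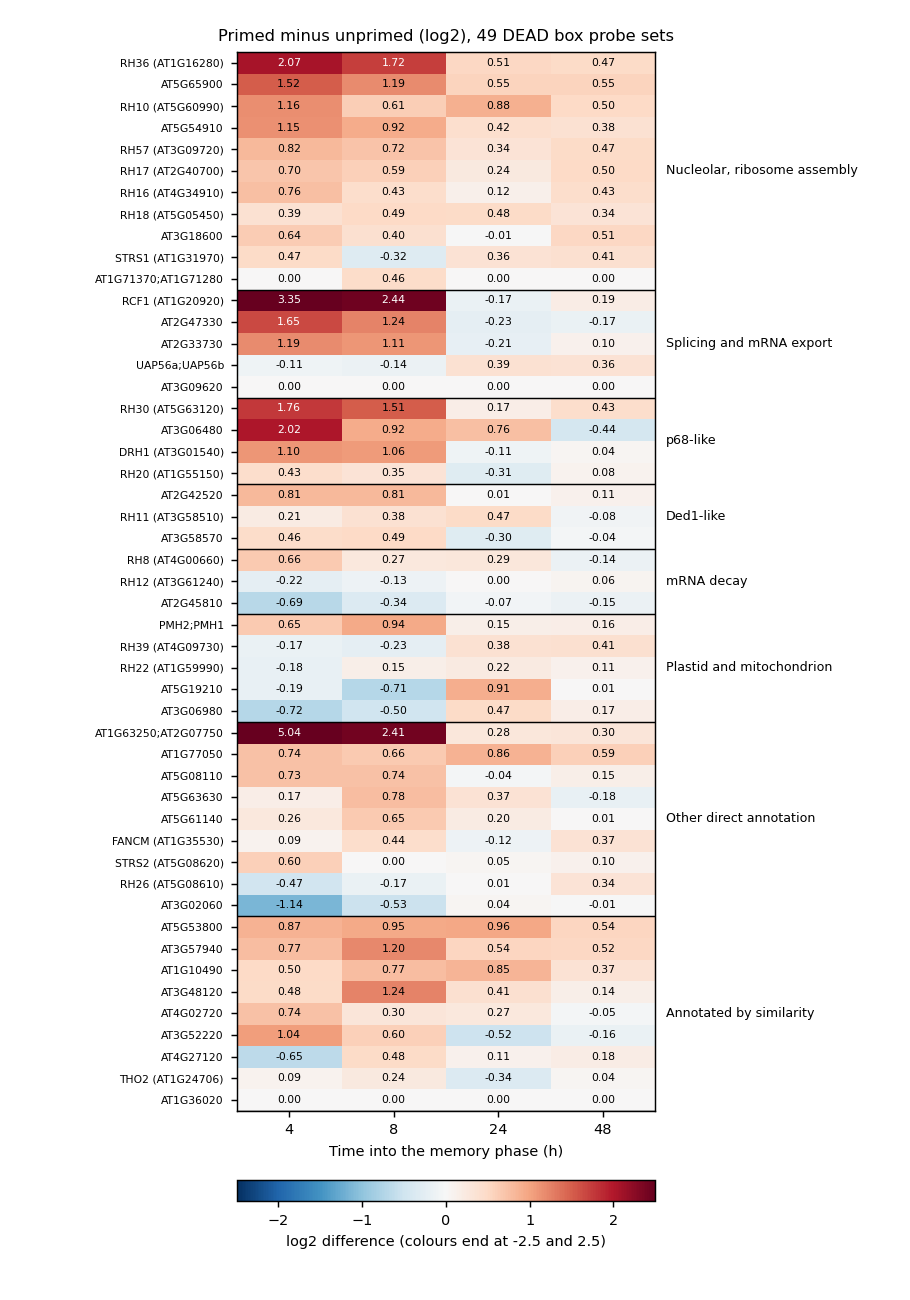
Heat map of the log2 difference, primed minus unprimed, for all 49 probe sets (rows, by role and, within a role, by mean difference) at 4, 8, 24 and 48 h (columns), with each difference printed in its cell. The darkest cells, at 4 and 8 h, are those of AT1G63250;AT2G07750 (5.04 and 2.41) and RCF1 (3.35 and 2.44), and no cell at 24 or 48 h reaches 1 in size.

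The largest difference belonged to a probe set shared by AT1G63250 and AT2G07750, both annotated as DEAD box helicases, whose separate contributions the array does not resolve. Its values were 11.64, 8.89, 7.06 and 7.31 at 4, 8, 24 and 48 h in primed seedlings and 6.60, 6.48, 6.78 and 7.01 in unprimed seedlings. Every primed value was above every unprimed value, but the 24 h and 48 h values came close to them. The differences were 5.04, 2.41, 0.28 and 0.30, and the first amounts to 32.9-fold.

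Of the 5 members assigned to splicing and mRNA export, 3 passed the 2-fold limit upward in primed seedlings at both 4 and 8 h. At 24 and 48 h 0 passed it. For comparison, 9.36% of all probe sets passed it upward at 4 h and 7.33% at 8 h. The assignment of members to roles rests on background knowledge of the family and not on the files. RCF1, a regulator of CBF genes in the cold response and a splicing helicase, had 10.62, 9.03, 7.07 and 6.84 in primed seedlings at 4, 8, 24 and 48 h, against 7.27, 6.59, 7.24 and 6.65 in unprimed seedlings. Its primed 4 and 8 h values stood above all 4 unprimed values, by 10.2-fold and 5.43-fold at the same time, and its primed 24 and 48 h values lay within the unprimed range. AT2G47330, listed with the splicing helicases, had 10.30, 9.54, 8.42 and 8.28 in primed and 8.65, 8.30, 8.65 and 8.45 in unprimed seedlings. Here too the first primed pair was above all unprimed values, and both later primed values were below their unprimed partners, with differences of -0.23 and -0.17. AT2G33730, a relative of the yeast spliceosomal helicase Prp28, differed by 1.19 and 1.11 at 4 and 8 h and by -0.21 and 0.10 at 24 and 48 h, and against the average of all 4 unprimed arrays its 8 h difference was 0.97.

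The probe set shared by UAP56a and UAP56b, helicases of mRNA export and splicing, was not among the 3. It had 11.35, 11.59, 11.86 and 11.86 in primed and 11.46, 11.73, 11.47 and 11.50 in unprimed seedlings, so primed seedlings were slightly lower early and slightly higher late. AT3G09620, the last of the 5 members in this role, was at the floor throughout. The median of the 5 was 1.19, 1.11, -0.17 and 0.10 at the 4 times.

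**Figure D2:**
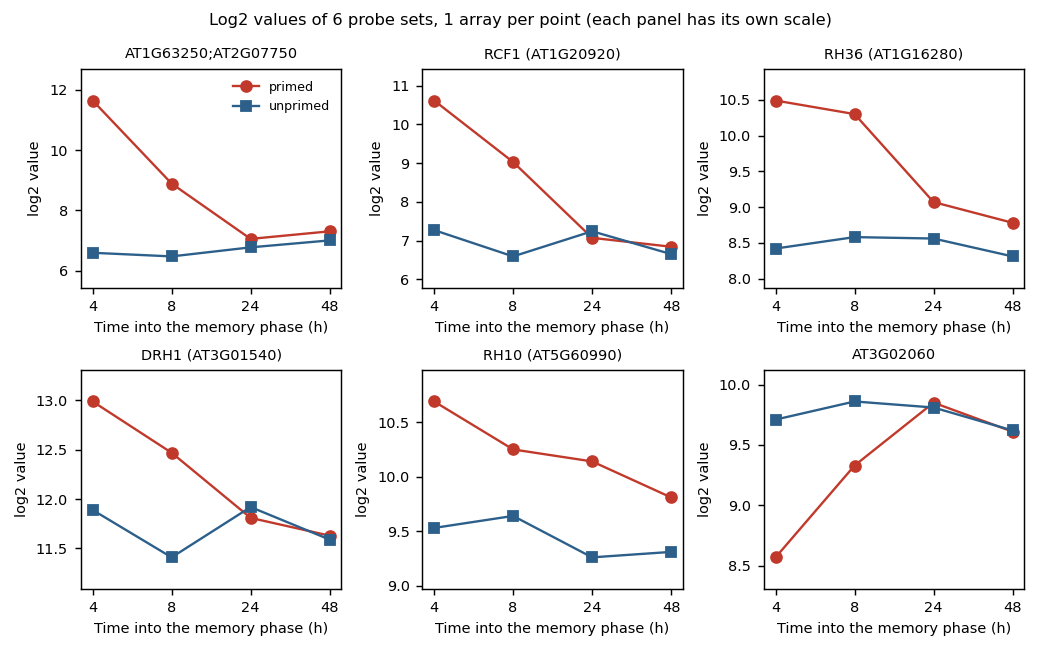
Log2 values of 6 probe sets in primed (circles) and unprimed (squares) seedlings at 4, 8, 24 and 48 h, 1 array per point and an own scale in each panel. AT1G63250;AT2G07750, RCF1, RH36 and DRH1 were highest in the primed 4 h array, RH10 stayed higher in primed seedlings at all 4 times, and AT3G02060 was lower in primed seedlings at 4 and 8 h.

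The p68-like helicases, named after a human protein that acts in transcription, splicing and RNA processing, also differed most at 4 and 8 h, with medians of 1.43 and 0.99. RH30 had 7.28, 6.53, 5.67 and 5.78 in primed seedlings, all above the unprimed values of 5.52, 5.02, 5.50 and 5.35, with differences of 1.76, 1.51, 0.17 and 0.43. AT3G06480 had 6.54, 5.66, 5.31 and 4.52 in primed and 4.52, 4.74, 4.55 and 4.96 in unprimed seedlings. Its difference was 2.02 at 4 h and -0.44 at 48 h, where the primed value equalled the lowest unprimed one. DRH1 had 12.99, 12.47, 11.81 and 11.63 in primed and 11.89, 11.41, 11.92 and 11.59 in unprimed seedlings, and only its first primed pair stood above the unprimed range. Against the average of all 4 unprimed arrays DRH1 differed by 0.77 at 8 h, in place of 1.06. RH20 stayed within the 2-fold limit, with differences of 0.43, 0.35, -0.31 and 0.08.

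The 3 members related to Ded1, a yeast helicase of translation initiation, stayed within the limit against the unprimed array of the same time. AT2G42520 differed by 0.81 at 4 and 8 h and by 0.01 and 0.11 later. Against the average of all 4 unprimed arrays it differed by 1.14 at 4 h, past the limit. RH11 and AT3G58570 differed by at most 0.49 in size from the unprimed array of the same time.

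Of the 11 members assigned to the nucleolus, where ribosomes are assembled, 8 were higher in primed seedlings at all 4 times. The share over all probe sets was 8.61%. The median difference of the 11 was 0.76, 0.59, 0.36 and 0.47 at 4, 8, 24 and 48 h. The 2-fold limit was passed upward by 4 at 4 h, 2 at 8 h and 0 later. Of all probe sets 9.36, 7.33, 2.76 and 0.747% passed it upward at the 4 times. RH36, also called SWA3, acts in rRNA processing and in the development of the female gametophyte. It had 10.49, 10.30, 9.07 and 8.78 in primed seedlings, all above the unprimed values of 8.42, 8.58, 8.56 and 8.31, with differences of 2.07, 1.72, 0.51 and 0.47. AT5G65900, a relative of the yeast ribosome assembly helicase Has1, had 8.91, 8.97, 8.58 and 8.46 in primed and 7.39, 7.78, 8.03 and 7.91 in unprimed seedlings, again without overlap. RH10 had 10.69, 10.25, 10.14 and 9.81 in primed and 9.53, 9.64, 9.26 and 9.31 in unprimed seedlings. AT5G54910 had 9.62, 9.89, 9.61 and 9.54 in primed and 8.47, 8.97, 9.19 and 9.16 in unprimed seedlings. In these 4 genes no primed value fell into the unprimed range. All 4 primed values were above all 4 unprimed values in 2.84% of all probe sets. Against the average of all 4 unprimed arrays AT5G54910 differed by 0.67 at 4 h, within the limit, in place of 1.15.

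For the other nucleolar members the groups touched or overlapped. RH57, an rRNA processing factor, differed by 0.82, 0.72, 0.34 and 0.47. RH17 differed by 0.70, 0.59, 0.24 and 0.50, RH16 by 0.76, 0.43, 0.12 and 0.43, and RH18 by 0.39, 0.49, 0.48 and 0.34. AT3G18600, which is also related to Has1, differed by 0.64, 0.40, -0.01 and 0.51, and at 24 h its unprimed value of 10.96 was the highest of the 4 unprimed arrays. The probe set shared by AT1G71370 and AT1G71280 was at the floor in 7 of 8 arrays.

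At 48 h the limit was lowered to 1.25-fold, which was decided on with the 48 h values in view. By it 19 of 49 members were higher in primed seedlings (38.8%), against 7.97% of all probe sets, and 1 was lower (AT3G06480), against 10.2%. The 19 comprised 10 of the 11 nucleolar members, with differences between 0.34 and 0.55, and 9 of the 38 other members. Set against the average of all 4 unprimed arrays, 5 of the 11 nucleolar members passed this limit, against 10% of all probe sets, and their median difference was 0.31 instead of 0.47. The unprimed 48 h array was the lowest of the 4 unprimed arrays for 5 of the 10 nucleolar members above the floor, and the primed 48 h value was above all 4 unprimed values for 5.

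**Figure D3:**
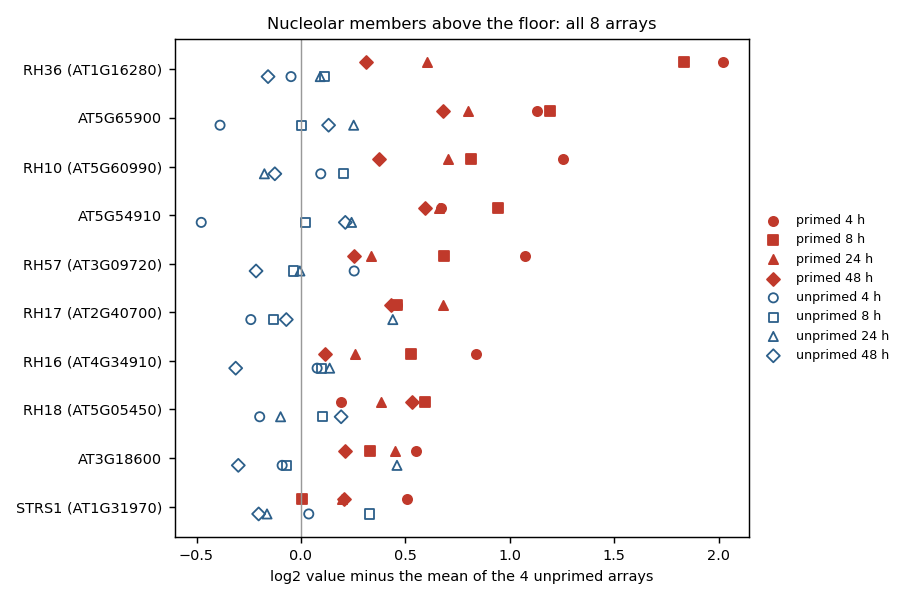
The 10 nucleolar members above the floor (rows) in all 8 arrays, as log2 values minus the mean of that gene's 4 unprimed arrays (horizontal axis), with filled symbols for primed and open symbols for unprimed seedlings and 1 symbol shape per time. RH36, AT5G65900, RH10 and AT5G54910 show no overlap, and the primed 48 h values (filled diamonds) lie right of the unprimed 48 h values (open diamonds) in all 10.

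Proteins of ribosome assembly that are not DEAD box helicases were listed for comparison. At 48 h 17 of 22 were at least 1.25-fold higher in primed seedlings, against 7.97% of all probe sets. That limit was decided on with the 48 h values in view. All 22 were above 0 at 48 h. Of the 22746 probe sets 7714 were above 0 and 8649 below 0, and the rest, many of them at the floor, had no difference. The medians of the 22 were 0.64, 0.43, 0.43 and 0.43 at the 4 times. The 2-fold limit was passed upward by 7 of the 22 at 4 h (4 after centring on the 8 reference genes). At 8 h 0 passed it (2 against the average of all 4 unprimed arrays). At 24 h 1 passed it (NSN1, a nucleolar GTPase, 1.40), and at 48 h 0 did. Of all probe sets 9.36, 7.33, 2.76 and 0.747% passed it upward at the 4 times. NUC2, a nucleolin, had the largest difference among the 22, with 5.59, 3.20, 3.31 and 3.18 in primed and 3.18, 2.88, 2.79 and 2.74 in unprimed seedlings.

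Of the 5 members assigned to plastids and mitochondria, 4 had a difference below 0 at 4 h and 3 at 8 h, and all 5 had one above 0 at 24 and 48 h. Their median was -0.18 and -0.23 at 4 and 8 h and 0.38 and 0.16 at 24 and 48 h. However, 0 of 5 passed the 2-fold limit at any time and 1 of 5 reached 1.25-fold at 48 h. Among all 49 members, 10 and 9 were below 0 at 4 and 8 h, and 33 and 36 were above 0 at 24 and 48 h. Of all 22746 probe sets, 9075 and 8179 were below 0 at 4 and 8 h, and 7836 and 7714 above 0 at 24 and 48 h. RH39, which acts in plastid rRNA maturation, had 9.28, 9.31, 9.91 and 9.80 in primed and 9.45, 9.54, 9.53 and 9.39 in unprimed seedlings. Its early primed values were below all unprimed values and its late ones above them. AT3G06980 had 10.83, 11.10, 11.49 and 11.50 in primed and 11.55, 11.60, 11.02 and 11.33 in unprimed seedlings, and at 24 h, where it differed by 0.47, the unprimed value was the lowest of the 4 unprimed arrays. AT5G19210 differed by -0.19, -0.71, 0.91 and 0.01, while its 4 unprimed values alone spanned 1.41. RH22, a plastid ribosome assembly factor, differed by at most 0.22 in size. The exception was the probe set shared by PMH1 and PMH2, mitochondrial helicases of intron splicing, which was higher in primed seedlings at all 4 times by 0.65, 0.94, 0.15 and 0.16.

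**Figure D4:**
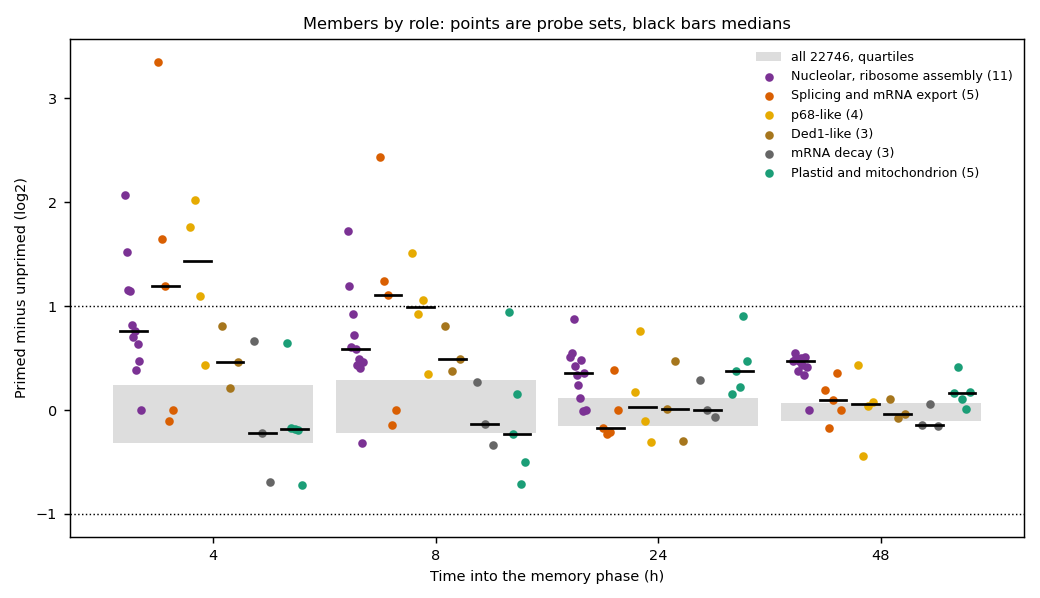
Log2 difference, primed minus unprimed (vertical axis), of the members in 6 roles at 4, 8, 24 and 48 h, with 1 point per probe set, black bars for role medians, grey boxes for the quartiles of all 22746 probe sets and dotted lines at the 2-fold limit. The medians of the splicing and p68-like members are 1.19 and 1.43 at 4 h and 0.10 and 0.06 at 48 h, and 10 of the 11 nucleolar members lie between 0.34 and 0.55 at 48 h.

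Of the 3 members related to helicases of mRNA decapping and translational repression, none passed the 2-fold limit. AT2G45810 was lower in primed seedlings at all 4 times, by 0.69, 0.34, 0.07 and 0.15 in size. RH12 differed by -0.22, -0.13, 0.00 and 0.06, and RH8 by 0.66, 0.27, 0.29 and -0.14. The only member at least 2-fold lower than the unprimed array of the same time was AT3G02060, which is annotated as a DEAD/DEAH box helicase. It had 8.57, 9.33, 9.85 and 9.61 in primed and 9.71, 9.86, 9.81 and 9.62 in unprimed seedlings, so that its primed values were below the unprimed range at 4 and 8 h. The 4 h difference of -1.14 is a 2.2-fold lower level.

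STRS1 and STRS2 take their names from a repressing role in stress responses. STRS1, which is counted with the nucleolar members, differed by 0.47, -0.32, 0.36 and 0.41. STRS2 had 10.81, 10.05, 10.36 and 10.05 in primed and 10.21, 10.05, 10.31 and 9.95 in unprimed seedlings, and its primed 4 h and 24 h values were above the unprimed range. RH26, which RefSeq also lists as PDE340, differed by -0.47, -0.17, 0.01 and 0.34. AT1G77050 was higher in primed seedlings by 0.74, 0.66, 0.86 and 0.59, and AT5G08110, AT5G63630 and AT5G61140 had their largest differences at 8 h, with 0.74, 0.78 and 0.65. FANCM, a DNA helicase of genome maintenance, was dim in all arrays, at 3.21 to 3.67 in primed and 2.77 to 3.39 in unprimed seedlings.

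Among the 9 members annotated by similarity, AT3G52220 was 2-fold higher at 4 h (1.04) and lower at 24 h (-0.52). AT3G57940 and AT3G48120 passed the limit at 8 h, with 1.20 and 1.24, but against the average of all 4 unprimed arrays AT3G48120 differed by 0.84. AT5G53800 was higher in primed seedlings by 0.87, 0.95, 0.96 and 0.54, with 8.90, 9.15, 8.58 and 8.81 in primed and 8.03, 8.20, 7.62 and 8.27 in unprimed seedlings and no overlap. THO2 differed by at most 0.34 in size. AT4G02720 differed by 0.74, 0.30, 0.27 and -0.05, and AT1G10490 by 0.50, 0.77, 0.85 and 0.37. AT4G27120 was lower in primed seedlings at 4 h, by 0.65, and differed by 0.48, 0.11 and 0.18 at the later times.

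Over the 4 times together, 18 of 49 members (36.7%) were higher in primed seedlings at every time, against 8.61% of all probe sets, and 8 of these 18 were nucleolar. All 4 primed values were above all 4 unprimed values for 9 members (18.4%), against 2.84% of all probe sets, namely for 4 nucleolar members, RH30, AT1G63250;AT2G07750, AT5G53800, AT3G48120 and AT1G10490. No member had all primed values below all unprimed values. The range of a member's 4 unprimed values had a median of 0.45, with a range of 1 or more in 2 members, AT5G19210 (1.41) and AT1G77050 (1.19). It holds changes with time and is not an error between replicates.

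The mean effect of priming over the 4 times was tested with limma across all probe sets. Time was a block, which left 3 residual degrees of freedom. With 1 array per condition, the residual holds changes of the priming effect over the 4 times and not an error between replicates. A small steady difference can therefore have a lower p than a large one that fades. After Benjamini-Hochberg adjustment 0 of 22746 probe sets and 0 of 49 members passed 0.05. At an unadjusted p under 0.05 there were 984 higher (4.33%) and 1045 lower (4.59%) among all probe sets, and 12 higher (24.5%) and 0 lower among the members. The smallest adjusted p of a member was 0.291 by limma, for RH18 (mean difference 0.42, higher in 4 of 4 pairs) and AT1G77050 (0.71, 4 of 4 pairs). For the members with the largest mean differences, the adjusted p by limma was 0.611 for AT1G63250;AT2G07750 (2.01, 4 of 4 pairs) and 0.613 for RCF1 (1.45, 3 of 4 pairs).

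Whether the effect differed between the early (4 and 8 h) and the late (24 and 48 h) memory phase was tested with limma on 2 residual degrees of freedom. Here the residual holds changes of the effect within each phase. Again 0 of 22746 probe sets and 0 members passed 0.05 after adjustment. At an unadjusted p under 0.05, early minus late was positive for 14 members (28.6%) and negative for 4 (8.16%), against 8.92 and 7.88% of all probe sets. The smallest adjusted p of a member was 0.1 by limma, for the shared UAP56 probe set (early minus late -0.50), and RCF1, with 2.88, had 0.204.

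Helicases outside the annotation rule were described in the same way. The 7 listed helicases with a probe set of another annotation had a median difference of 0.51, 0.43, 0.08 and 0.06 at the 4 times. One of them, AT4G33370 of the splicing list, was at the floor in all arrays. LOS4, an mRNA export helicase known from cold and heat responses, differed by 0.78, 1.03, 0.08 and -0.05, and AT5G51280, of the splicing list, by 1.74, 1.26, -0.57 and 0.06. The p68-like gene AT5G14610 differed by 0.15, -0.56, -0.12 and -0.09. The nucleolar genes RH1, PRH75 and AT3G16840 differed by 0.91, 0.51 and 0.43 at 4 h and by 0.49, 0.22 and 0.40 at 48 h. Among the 5 genes of the eIF4A branch, which the rule left out where the annotation said initiation factor, EIF4A1 differed by -0.36, -0.22, -0.05 and 0.10 and EIF4A-III by 0.17, 0.22, 0.13 and 0.03. The second eIF4A gene, AT1G54270, differed by at most 0.19 in size, and AT1G72730 by 0.06, -0.88, -0.01 and 0.35. AT1G51380 passed the 2-fold limit at 4, 8 and 48 h, with 8.37, 8.33, 7.74 and 7.48 in primed and 6.33, 6.26, 7.04 and 6.32 in unprimed seedlings.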

How the data were processed

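The authors deposited log2 values of 8 Affymetrix ATH1 arrays, normalized between arrays, for which the submitters' processing notes list GCRMA and RMA with no version. No genome build is given in the sources used here. The table also holds the authors' own differences between arrays, which were not used. Of 22810 probe sets, 64 controls were left out, as was 1 row without a name. Differences were calculated from the deposited log2 values and counted at 2-fold. The fits used limma 3.58.1 in R 4.3.3 and were checked on simulated data, with Benjamini-Hochberg adjustment over all 22746 probe sets. No depth exists for arrays, and their number limits the precision.

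Members and gene lists were chosen with earlier results of these data known. Named in the text are the members past 2-fold, the 8 highest and 8 lowest mean differences, the 5 largest early minus late effects each way, the stress-related helicases, the heat markers and up to 3 genes of each other list. This rule names 32 members, and the rest were named after their values had been seen to complete a role. Symbols came from the table, from RefSeq or, as with RCF1 and RH57, from the gene lists, which were drawn up from background knowledge. RefSeq lists 52 of the 53 identifiers, all but AT1G77050. Sequences were not used here. Alternatives were quantile normalization, centring on 8 reference genes, leaving out dim probe sets, a raised floor, probe sets of 1 gene, the other deposited table (equal in every cell), the mean unprimed control, 1.5- and 4-fold limits, leaving out array pairs, no time block, and a limma trend with a robust prior.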

Additional observations from a re-analysis of the deposited data

Results flagged for a closer look

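The priming effect had one sign at both early times (4 and 8 h) and the other sign at both late times (24 and 48 h) in 8 of 49 members (16.3%), against 13% of all probe sets, a share near the background. The difference early minus late was 1.65 for AT2G47330, 1.16 for AT3G52220 and 0.65 for AT3G58570, which were higher in primed seedlings early and lower late. It was -0.50 for the probe set of AT5G11170;AT5G11200 (UAP56a and UAP56b), -0.59 for AT4G09730 (RH39), -0.91 for AT5G19210, -0.49 for AT5G08610 (RH26) and -0.93 for AT3G06980, which were lower early and higher late. The adjusted p of early against late by limma lay between 0.1 and 0.503 for these 8, so none of the differences passed 0.05. For AT5G19210 the late side includes a 48 h difference of 0.01, for AT5G08610 a 24 h difference of 0.01 and for AT3G58570 a 48 h difference of -0.04.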

How the results depend on the processing

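The labels carry no replicate numbers, and primed and unprimed arrays were matched by time only, through the time block of limma. With a 1.5-fold limit 25 members were higher and 4 lower in primed seedlings at 4 h (15.6 and 17% of all probe sets), 24 higher and 1 lower at 8 h (14.9 and 14.6%), 6 higher at 24 h (7.12%) and 1 higher at 48 h (2.46%). With a 4-fold limit 4 members were higher and 0 lower at 4 h (3.54 and 2.75%), and at 8 h 2 were higher (1.84%). A 1.25-fold limit, added after seeing the data, gave 19 higher and 1 lower at 48 h. Set against the average of all 4 unprimed arrays, 14 members were at least 2-fold higher at 4 h in place of 12. At 8 h 8 were higher in place of 10. At 4 h 2 were at least 2-fold lower in place of 1, with AT4G27120 (-1.02) added. Within the limit were AT5G54910 at 4 h (0.67) and AT3G48120 (0.84), DRH1 (0.77) and AT2G33730 (0.97) at 8 h. RH57 (1.08), AT2G42520 (1.14) and AT1G77050 (1.40) at 4 h and AT5G53800 (1.12) at 8 h passed it upward. The share of all probe sets past 2-fold was not counted under this control. By the same control 2 ribosome assembly factors were 2-fold higher at 8 h in place of 0. At 48 h 5 nucleolar members were 1.25-fold higher in place of 10. Centring on the 8 reference genes shifted the median of all probe sets at 24 h to -0.10. With it the member median at 24 h was 0.09, and 4 ribosome assembly factors in place of 7 were 2-fold higher at 4 h. Limma called 1 of all probe sets for the mean effect without dim probe sets and 8 without the time block, and for early against late 1 after quantile normalization and 21 with trend and robust prior. Members called were 0 in each of these. Without each array pair in turn the fit of the mean effect called 0, and the early against late fit was not repeated in this way. Of 884 values of single members under the alternatives, 841 moved by at most 0.25, 43 by more and 0 changed sign past the limit. This tally includes settings that could not move a value. The other deposited table is equal in every cell, and keeping probe sets of 1 gene leaves their values unchanged. The raised floor changes only values near the floor. The tally is therefore no measure of stability. With 1 array per condition, no error of a single difference is known.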
